A study of Mus musculus with 39 samples.

Results

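Among 39 cells picked singly from the liver of adult mice, 3 carried very large amounts of transcript for the granule enzymes neutrophil elastase (Elane) and myeloperoxidase (Mpo). They are cells 29, 32 and 36 by the labels' numbering. They were selected on those values, as the cells with Elane and Mpo each at 100 CPM or more, where CPM is the deposited log2 value turned back to a linear, per-million-like scale. The 36 others served for comparison. All cells came from Krt19CreERT/Rosa26CAG-EGFP animals, in which a tamoxifen-inducible Cre recombinase under Krt19, a keratin gene of bile duct epithelium, switches on an EGFP reporter. Green cells were isolated by fluorescence sorting and then picked singly. The study set out to describe the Krt19 lineage of the adult liver. The reporter marks past Cre activity, and how these 3 cells came to be green was not tested. The labels name no animal, age beyond adult, induction time, sort, plate or sequencing run, and all cells form 1 group. Cells of such a group are not replicates, so each value describes these 3 cells and no test or replicate error is given.

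Azurophil or primary granules are the first granules made by developing neutrophils and monocytes. Their proteases (Elane, Prtn3 and Ctsg) and Mpo are transcribed in promyelocytes and in granulocyte-monocyte progenitors, mostly in the bone marrow, and the transcripts fall as the cells mature. Later stages make specific and gelatinase granule proteins in sequence, and circulating neutrophils hold the finished proteins with little of the early mRNA.

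The promoters of the granule genes are shown because these genes were high together in the 3 cells. Each sequence is the 250 bases before the annotated RefSeq start in build GRCm38.p6, read 5′ to 3′ on the gene's strand. Capitals mark GAGGAA, a core bound by ETS family factors such as PU.1, on the strand shown or its complement, and in Ms4a3 the C/EBP-type motif TTNNGNAA.
Elane: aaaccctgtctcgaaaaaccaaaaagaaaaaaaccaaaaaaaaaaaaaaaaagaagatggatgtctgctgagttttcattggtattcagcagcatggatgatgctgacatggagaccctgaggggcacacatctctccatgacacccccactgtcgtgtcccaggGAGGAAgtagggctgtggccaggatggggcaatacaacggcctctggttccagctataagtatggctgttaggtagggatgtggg
Prtn3: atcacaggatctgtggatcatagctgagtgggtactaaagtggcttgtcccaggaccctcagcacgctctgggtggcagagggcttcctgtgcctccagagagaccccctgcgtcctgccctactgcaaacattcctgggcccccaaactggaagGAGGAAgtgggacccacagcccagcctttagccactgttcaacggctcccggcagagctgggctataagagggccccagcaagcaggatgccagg
Mpo: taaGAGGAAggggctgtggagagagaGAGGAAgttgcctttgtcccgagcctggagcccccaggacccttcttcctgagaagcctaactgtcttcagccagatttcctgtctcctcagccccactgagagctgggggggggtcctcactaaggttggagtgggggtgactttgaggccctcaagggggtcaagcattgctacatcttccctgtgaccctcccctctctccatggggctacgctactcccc
Ctsg: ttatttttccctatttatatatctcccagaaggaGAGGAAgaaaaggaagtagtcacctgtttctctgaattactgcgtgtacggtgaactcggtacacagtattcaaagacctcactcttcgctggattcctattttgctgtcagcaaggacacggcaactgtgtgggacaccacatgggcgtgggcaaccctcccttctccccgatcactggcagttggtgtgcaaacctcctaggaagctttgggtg
Ms4a3: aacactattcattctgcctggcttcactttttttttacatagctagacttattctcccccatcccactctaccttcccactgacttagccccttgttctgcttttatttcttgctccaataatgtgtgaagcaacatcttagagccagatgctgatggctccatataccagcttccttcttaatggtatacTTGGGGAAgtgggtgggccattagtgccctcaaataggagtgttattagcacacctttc

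The Elane window lies at chr10:79886062-79886311 and the Prtn3 window at chr10:79879417-79879666, both on the plus strand. The starts of these protease genes are 6.645 kb apart. The Mpo window lies at chr11:87793534-87793783 on the plus strand. The Ctsg window is at chr14:56102575-56102824 and that of Ms4a3 at chr19:11640852-11641101, both on the minus strand. GAGGAA occurred 1 time in the windows of Elane, Prtn3 and Ctsg and 2 times in that of Mpo. In Elane it spans bases 85 to 80 before the start and in Prtn3 bases 95 to 90, while in Ctsg it spans bases 216 to 211. It was found in 23.3% of 32851 RefSeq promoter windows of the same length. TTNNGNAA was found in the Ms4a3 window alone among the 5, at bases 59 to 52, and in 36.8% of all windows. TGTGGT, a RUNX-type motif, had 1 match in Ctsg and a share of 14.0% over all windows. AACNG, a MYB-type motif, matched in all but the Ms4a3 window, with a share of 74.2%. Both strands were searched for each motif. A match describes the letters only.

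Before the gene results, the libraries need a description. The summed CPM of cells 29, 32 and 36 were 1069641, 794894 and 764926, beside 351255 to 3128332 in the others. By the step between low values, 1 CPM stood for about 10.7, 24.3 and 18.2 reads, beside a median of 11.4 in the others. Genes at 100 CPM or more numbered 1139, 1391 and 1474 of 10061, which is 11.3%, 13.8% and 14.7%, beside a median of 922 in the others. Cell 36 had the most of all cells. These percentages are the background for every count of list genes below. A 0 means only that a gene is listed at 0. Of 16 measured housekeeping genes 9 were listed at 0 in at least 1 cell, among them Sdha in cell 32.

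Low values of the granule genes were found in particular other cells. The 6 genes Elane, Mpo, Prtn3, Ms4a3, Ctsg and Nkg7 stood in cell 24 at 0.205% to 0.295% of their values in cell 32. In cell 28 they stood at 0.250% to 0.311% and in cell 25 at 0.0891% to 0.147% of the same values. Against cell 29 the ratios in cell 24 were uneven, from 0.0963% to 0.834%. In cell 33 the 6 genes stood at 0.106% to 0.246% of their values in cell 36, and in cell 34 at 0.0763% to 0.124%. In cell 35 they ran from 0.0180% to 0.0737%, and in cell 37 from 0% to 0.0243%, with Ctsg and Nkg7 listed at 0. Where both were compared, low values in cells 24, 25 and 28 thus kept cell 32's proportions more closely than cell 29's. In cell 35 Ctsg and Nkg7 were each at 0.149 CPM, the size of its step between low values. Over Elane, Mpo, Prtn3 and Ms4a3 alone, ratios to cell 36 were 0.129% to 0.185% in cell 33 and 0.0763% to 0.124% in 34. Over the same genes they were 0.0548% to 0.0737% in cell 35 and 0.0220% to 0.0243% in cell 37. The wider relative spread in cells 35 and 37 came from Ctsg and Nkg7, near the floor, so no order of closeness is drawn.

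Low values in the same cells were found beyond the granule genes too. Of 250 genes at 500 CPM or more in cell 32, 100% were listed above 0 in each of cells 24, 25 and 28. The share was 55.6% to 84.8% in the 33 non-member cells outside that set, and 91.2% in cell 36. Of 493 such genes of cell 29, 91.7% to 98.0% were above 0 in cells 24, 25 and 28, beside 41.8% to 81.5% in the same 33 cells. Of 280 such genes of cell 36, 95.7% to 100% were above 0 in cells 33, 34, 35 and 37. The share was 54.3% to 88.2% in the 32 non-member cells outside, and 94.3% in cell 32. At 100 CPM or more the non-member cells inside and outside the sets were alike. The medians were 38.8% and 34.8% for cell 32, 23.3% and 21.1% for cell 29, and 34.1% and 33.6% for cell 36. The 2 sets of cells, 24, 25, 28, 29 and 32, and 33 to 37, were drawn from the data and match no label. Whether reads passed between libraries was not tested. Results are therefore read at 100 CPM, above the low values of these 6 genes in the other cells.

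Elane, the serine protease of primary granules, was at 43187 CPM in cell 29, 21205 CPM in cell 32 and 25577 CPM in cell 36. Mpo, which makes hypochlorous acid, was at 20886, 8871 and 26219 CPM. Both chose the cells, so these values are a description. The nearest cells outside the threshold were cell 28 with Elane at 59.3 CPM and Mpo at 27.5 CPM, cell 24 with 55.5 and 20.1 CPM, and cell 33 with 42.9 and 42.7 CPM. The lowest values inside the threshold were those of cell 32. Elane alone made up 4.04%, 2.67% and 3.34% of the summed CPM, and Mpo 1.95%, 1.12% and 3.43%.

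**Figure D1:**
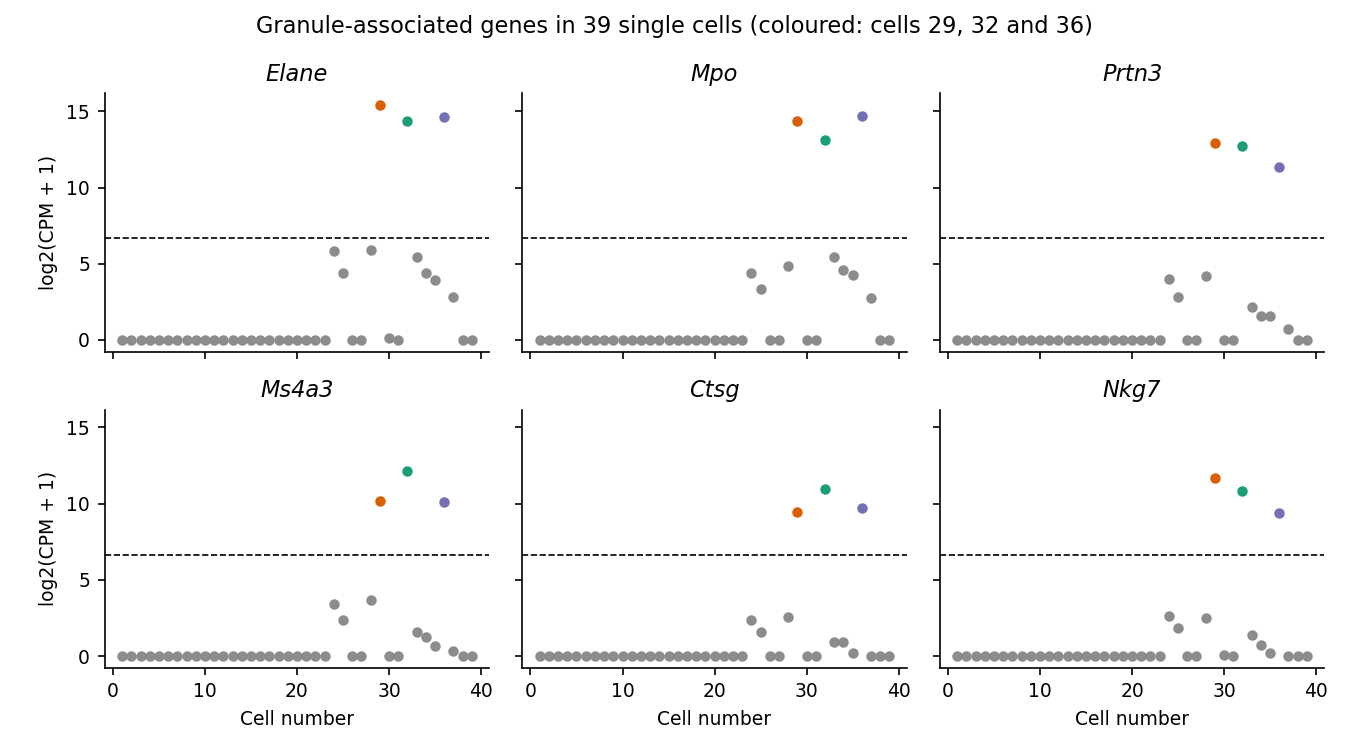
Levels of 6 granule-associated genes in each of the 39 cells, by cell number, as log2(CPM + 1), with cells 29, 32 and 36 in colour and the dashed line at 100 CPM. All 6 genes lie above the line in the 3 cells and below it in every other cell, where low values stand at cells 24, 25, 28 and 33 to 37.

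The other granule-stage markers were high in each of the 3 cells and low elsewhere. Prtn3, encoding proteinase 3, was at 7859, 6699 and 2631 CPM in cells 29, 32 and 36, with a highest other value of 17.4 CPM. Ms4a3, a membrane protein of granulocyte-monocyte progenitors, was at 1175, 4617 and 1088 CPM, with a highest other value of 11.7 CPM. Ctsg, encoding cathepsin G, was at 716, 2014 and 826 CPM, beside at most 5.03 CPM elsewhere. The 3 cells did not share an order: cell 29 was highest for Elane and Prtn3, cell 32 for Ms4a3 and Ctsg, and cell 36 for Mpo.

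Of 10061 genes, 23 (0.229%) were at 100 CPM or more in each of the 3 cells and higher there than in every other cell. In 14 of the 23, no other cell reached 100 CPM. Because Elane and Mpo split the cells on this same contrast, the count is a description and nothing is read from it. Srgn, the proteoglycan core that packs proteases into granules, was at 1944, 1081 and 1764 CPM, with 6.20 CPM at most elsewhere. Nkg7, a granule membrane protein also of cytotoxic lymphocytes, was at 3267, 1808 and 663 CPM. Ly6c2, a surface antigen of monocytes and their precursors, was at 2879, 397 and 2221 CPM. Ly6c2 has near-identical relatives, so its share of reads is uncertain. Kit, the stem cell factor receptor of early progenitors and mast cells, was at 315, 225 and 335 CPM, and at most 2.73 CPM elsewhere.

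Further genes of this set joined blood-cell and housekeeping roles. Clec12a, an inhibitory lectin receptor of myeloid cells, was at 1787, 868 and 644 CPM, with cell 33 next at 76.4 CPM. Arhgdib, a GDP dissociation inhibitor of blood cells, was at 4116, 3786 and 1874 CPM, beside a highest other value of 710.3 CPM. Plac8, a small cysteine-rich protein of myeloid cells, was at 1245, 985 and 2092 CPM, beside 571 CPM. Adssl1 and Adsl, of adenine nucleotide synthesis, were both in the set. Adsl was at 333, 310.4 and 315 CPM, close to even among the 3 cells. The remaining members with the largest gaps were Phkb, Stk35, Mbnl3, Taok3, Rgcc and Hmgn2. Hmgn2, a nucleosome-binding protein, was at 4435, 2494 and 1363 CPM, only slightly above the 1279 CPM of cell 8. Only 7 genes were left at a threshold of 1000 CPM, namely Elane, Mpo, Prtn3, Ms4a3, Srgn, Arhgdib and Hmgn2.

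**Figure D2:**
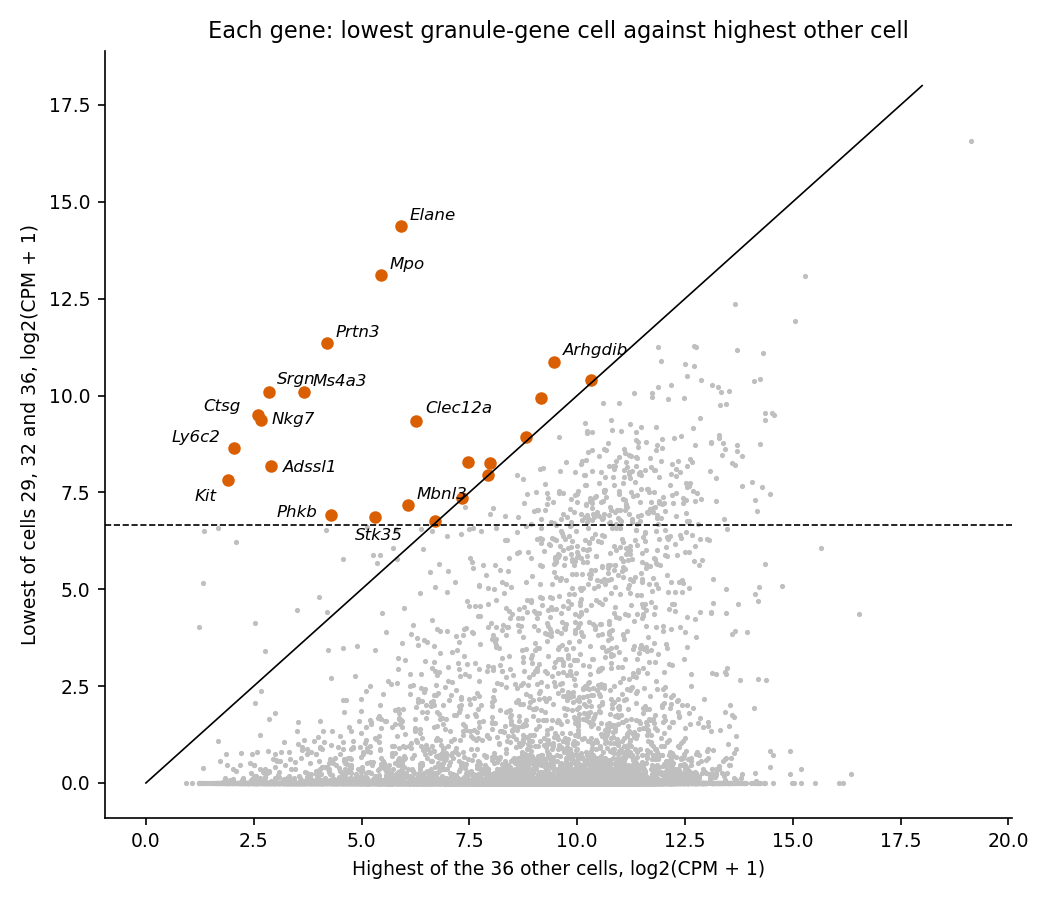
Each point is 1 gene, with the highest value among the 36 other cells on the x axis and the lowest value among cells 29, 32 and 36 on the y axis, both as log2(CPM + 1); the diagonal marks equality and the dashed line 100 CPM. The 23 coloured genes lie above both lines, with Elane, Mpo and Prtn3 the farthest up.

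A wider set of 48 genes (0.477%) was at 100 CPM or more in each of the 3 cells and in at most 3 others. It shared 21 genes with the previous set and held 27 more, on the same contrast. Lta4h, which makes the neutrophil attractant leukotriene B4, was at 1974, 164 and 653 CPM. Hmha1, a GTPase-activating protein of blood cells, was at 833, 781 and 135 CPM. Gsr, glutathione reductase, was at 139, 574 and 728 CPM. Laptm5, a lysosomal membrane protein of blood cells, was at 138, 255 and 301 CPM, while cell 33 held 3575 CPM of it. Laptm5 is thus no marker of these 3 cells alone.

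The azurophil list had 16 measured genes, of which 12, 11 and 12 were at 100 CPM or more in cells 29, 32 and 36. In the others the median was 1 and the highest was 5, in cell 33. Read beside 11.3% to 14.7% of all genes, the shares were far higher, but 2 of the list's genes chose the cells. In the 3 cells 9 of the 16 genes reached 100 CPM in all and 14 in at least 1. Serpinb1a, an inhibitor of granule proteases, was at 3274, 1717 and 394 CPM. It also reached 100 CPM in 11 others, and its family has near copies. Gusb, a lysosomal glucuronidase, was at 6.84, 1047 and 198 CPM. Lyz2, lysozyme, was at 606, 0.0411 and 126 CPM. Cd63, a granule membrane tetraspanin, was at 81.9, 453 and 701 CPM. Ctsc, the protease that activates the granule proteases, was under 1 CPM in all 3 cells, as was Hexa, a lysosomal hexosaminidase. Lyz2 was thus near 0 in cell 32, the cell with the most Ms4a3 and Ctsg.

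Genes of later granulocytes divided the cells. Of 12 measured mature neutrophil genes, 6, 5 and 2 were at 100 CPM or more in cells 29, 32 and 36, beside a median of 0.5 and at most 3 in the others. S100a8, a subunit of calprotectin, was at 1504, 1591 and 33.7 CPM. Its partner S100a9 was at 1359.6, 1251 and 0 CPM. Trem1, an activating receptor of neutrophils, was at 172, 111 and 0 CPM. Csf3r, the G-CSF receptor, was at 1904, 0.0983 and 67.5 CPM. G0s2, a lipase inhibitor, was at 0.468, 849 and 0 CPM. In cell 36 only Csf2rb, a cytokine receptor chain, at 529 CPM and Ifitm1, an interferon-induced membrane protein, at 118 CPM reached the threshold. S100a8 and S100a9 were therefore high in cells 29 and 32 and low or listed at 0 in cell 36.

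Of 7 measured specific and gelatinase granule genes, 4, 4 and 1 were at 100 CPM or more, beside a median of 1 in the others and 4 in cells 2, 4 and 38, so the count did not set the 3 cells apart. The genes differed in which cells held them. Ngp, a neutrophil granule protein of the cathelicidin family, was at 545, 278 and 0 CPM, with at most 11.7 CPM elsewhere. Lcn2, lipocalin 2, was at 1.03, 159 and 0.110 CPM and reached 100 CPM in 19 others. Ltf, lactoferrin, was listed at 0 in all 3 cells. Hp, haptoglobin, made by hepatocytes as well as granulocytes, was at 4271, 2717 and 864 CPM and reached 100 CPM in 13 others. Ltb4r1, the leukotriene B4 receptor, was at 311, 100.2 and 89.4 CPM, beside at most 1.53 CPM elsewhere.

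**Figure D3:**
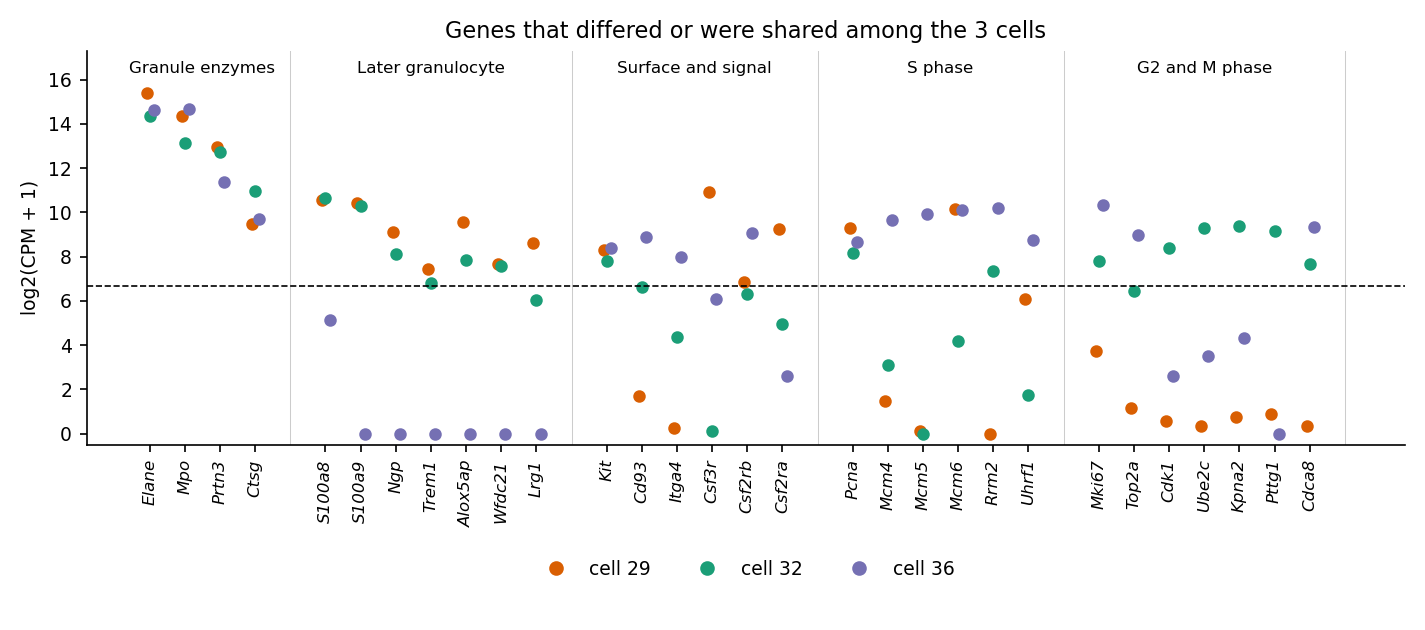
Levels of 30 genes picked for display in cells 29, 32 and 36, as log2(CPM + 1), grouped by role, with the dashed line at 100 CPM. Granule enzymes are high in all 3 cells. The 7 genes shown as later granulocyte are below the line in cell 36. Some of them were also high in cells not shown. Wfdc21 was at 827 CPM in cell 1, and Lrg1 at 2734 CPM and S100a8 at 212 CPM in cell 2. Of the same lists, Csf2rb and Csf3r are shown among surface genes, with Csf2rb above the line in cell 36 and Csf3r in cell 29 alone. Ifitm1 and Hp, also above 100 CPM in cell 36, and G0s2 are not shown. The S phase genes shown are highest in cell 36 except Pcna and Mcm6, and the G2 and M phase genes shown are lowest in cell 29 except Pttg1.

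Of 20 measured monocyte genes, 5, 4 and 5 reached 100 CPM in cells 29, 32 and 36, beside a median of 2 in the others. Of the others 8 had at least 4, and cell 33 had 7, so the count did not set the 3 cells apart. Ly6c2 and Clec12a among them are described above. Gda, guanine deaminase, was at 150.3, 171 and 197 CPM. Cd14, the lipopolysaccharide co-receptor, was at 0.375, 206 and 491 CPM, and it reached 100 CPM in 10 others. Csf1r, the macrophage growth factor receptor, was under 1 CPM in all 3, as were Klf4, Fn1, Psap and Tlr2. Csf1r marks maturing monocytes and macrophages, and neither it nor the other 4 reached 1 CPM beside the granule genes.

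Few genes of the resident liver macrophages were at the threshold. Of 15 measured Kupffer cell and macrophage genes, 1, 1 and 0 reached 100 CPM, and 13 were under 1 CPM in all 3. The median in the others was 0 and cell 33 had 14, so the low count did not set the 3 cells apart from most others. Clec4f, a Kupffer cell lectin, was at 0, 0 and 0.0551 CPM, and at 4341 CPM in cell 33. The exceptions were Axl, a receptor tyrosine kinase, at 548 CPM in cell 29 and Slc40a1, the iron exporter, at 172 CPM in cell 32. Of 10 measured dendritic cell genes none reached 100 CPM in the 3 cells, beside a median of 0 in the others. Of 6 measured erythroid and 2 B cell genes none did either, with medians of 0 in the others. Of 6 T and NK cell genes only Nkg7 did, and of 3 basophil and mast cell genes only Kit.

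The general leukocyte list had 10, 14 and 9 of 32 measured genes at 100 CPM or more, beside a median of 2 in the others and 14 in cell 33. Most of its members were high in only part of the 3 cells. Ptpn6, the phosphatase SHP-1, was at 3217, 312 and 44.4 CPM. Rac2, the blood cell GTPase of the oxidase, was at 1175, 403 and 35.2 CPM. Alox5ap, which serves leukotriene synthesis, was at 753, 232 and 0 CPM. These 3 genes ranked in the order cell 29, 32, 36. A pair of adhesion genes ran the other way. Selplg, the P-selectin ligand, was at 1.17, 2.86 and 539 CPM. Itga4, integrin alpha 4, was at 0.204, 19.7 and 248 CPM. Anxa1, an annexin of myeloid cells, was at 575, 178 and 494 CPM. Tyrobp, a signalling adaptor, was at 0.0937, 100.3 and 0 CPM.

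Of 16 early progenitor genes measured, 2, 4 and 4 reached 100 CPM, and 22 of the others had at least 2. Kit, the gene that sets them apart here, is given above. Cd93, a receptor of progenitors and myeloid cells, was at 2.27, 97.8 and 467 CPM, beside 41.2 CPM at most in the others. Cd34, Meis1, Procr, Sox4 and Gpr56 were under 1 CPM in all 3. Of 19 myeloid transcription factor genes, 2, 3 and 3 reached 100 CPM, beside a median of 3 in the others. Cebpa, a driver of granulocyte commitment, was at 0, 148 and 13.1 CPM. Fli1, an ETS factor of blood and endothelium, was at 20.1, 154 and 433 CPM, with at most 43.6 CPM elsewhere. Myc was at 0.187, 66.2 and 529.5 CPM. No factor of this list reached 100 CPM in all 3 cells. Over all 10061 genes only 319 reached it in all 3, so nothing is read from the absence. The 9 azurophil genes that did include Elane and Mpo, which chose the cells, so nothing is read from that contrast.

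Of 15 measured genes of the phagocyte oxidase and of peroxide handling, 5, 6 and 6 reached 100 CPM, beside a median of 4. Cybb, the catalytic subunit of the oxidase, and Ncf1 and Ncf4, cytosolic subunits, stayed below 100 CPM in every one of the 3 cells. Gpx1, glutathione peroxidase, was at 7874, 5345 and 5313 CPM. The oxidase is a feature of mature neutrophils. Of 8 heme synthesis genes, whose product Mpo needs, 1, 3 and 2 reached 100 CPM. Alas1, the rate-limiting enzyme, was at 1479, 1.97 and 551 CPM.

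Genes of the secretory pathway, through which granule proteins pass, were broadly high. Of 36 measured genes 24, 27 and 29 reached 100 CPM, beside a median of 9 and at most 26, in cell 8, in the others, of which 2 had 24 or more. In the 3 cells 20 of the 36 reached it in all. Hspa5, the chaperone BiP, was at 3854, 1797 and 4143 CPM. Sec11c, a catalytic subunit of the signal peptidase, was at 1342, 144 and 92.2 CPM, and no other cell reached 100 CPM of it. Sdf2l1, a chaperone cofactor, was at 1577, 321 and 315 CPM. Ddost, of the oligosaccharyltransferase, was at 1760.1, 506 and 1000.1 CPM. Read beside 11.3%, 13.8% and 14.7% of all genes, 66.7%, 75.0% and 80.6% of this list were at the threshold. Of the 16 housekeeping genes, 11, 13 and 14 reached 100 CPM too (68.8%, 81.2% and 87.5%), beside a median of 8 in the others. A share far above that of all genes was therefore not particular to the secretory list.

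**Figure D4:**
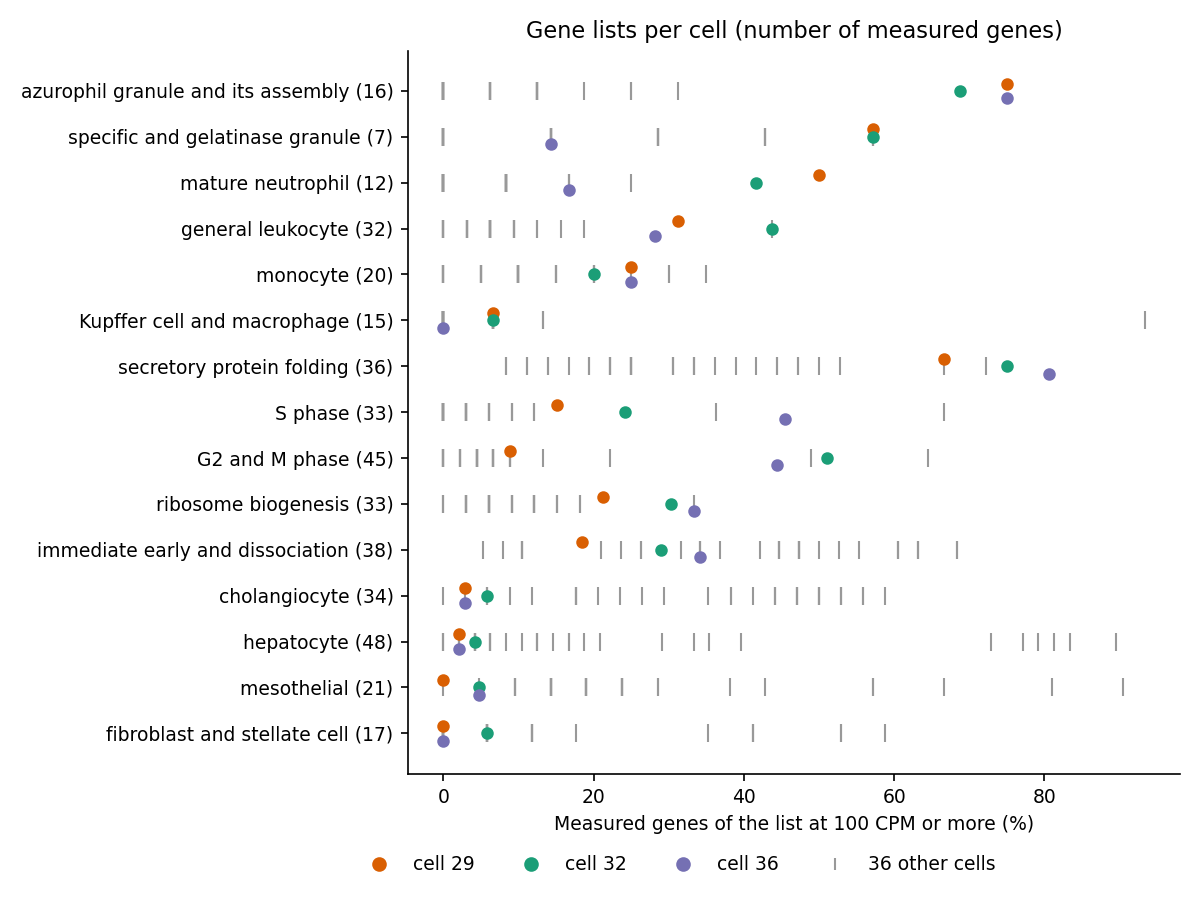
Percentage of the measured genes of 15 lists at 100 CPM or more, one row per list with the number measured in brackets, with coloured points for cells 29, 32 and 36 and grey ticks for the other cells. The 3 cells lie right of all others for the azurophil list. They lie toward the left for cholangiocyte, hepatocyte, mesothelial and fibroblast genes, where some of the others lie as far left or farther. For fibroblast genes many of the others do.

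Cell 29 had the fewest cell cycle genes at the threshold. Of 33 measured S phase genes 5, 8 and 15 reached 100 CPM, beside a median of 1. Pcna, the replication clamp, was at 624, 288 and 406 CPM. The helicase subunit Mcm5 was at 0.0855, 0 and 984 CPM and Mcm4 at 1.78, 7.47 and 803 CPM. Rrm2, of ribonucleotide reductase, was at 0, 163 and 1169 CPM. Among the 3 cells S phase genes were thus most numerous in cell 36, while cell 8 of the others held 22. Of 45 measured G2 and M phase genes 4, 23 and 20 reached 100 CPM, beside a median of 2 and at most 29, in cell 6.

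Mki67, a protein of dividing cells, was at 12.4, 220.4 and 1270.2 CPM. Top2a, topoisomerase II alpha, was at 1.22, 85.7 and 509 CPM. Ube2c, an enzyme of mitotic exit, was at 0.281, 619 and 10.2 CPM, and Cdk1 at 0.468, 329.8 and 5.08 CPM. Kpna2, a nuclear import factor, was at 0.656, 661 and 18.8 CPM, and Cdca8, of the chromosomal passenger complex, at 0.281, 201 and 643 CPM. Mki67 and Cdca8 were thus above 100 CPM in cells 32 and 36, while Ube2c, Cdk1 and Kpna2 were above it in cell 32 alone of the 3. The S phase counts stood in the same order as the totals of genes at 100 CPM (1139, 1391 and 1474), and the G2 and M phase counts did so for cell 29 but not between cells 32 and 36. The part of the totals was not tested. A cycle phase was not called. Of 33 ribosome biogenesis genes 7, 10 and 11 reached 100 CPM, beside a median of 2 and at most 11, and Ncl, nucleolin, was at 352, 565 and 589 CPM. Of 15 arrest genes 0, 1 and 2 did, beside a median of 2.

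Few markers of the liver's own cells were at the threshold. Krt19, the driver of the label, was at 0.656, 0.370 and 0 CPM, while it reached 100 CPM in 15 of the others and 20676 CPM in cell 24. Krt19 at the time of picking says nothing of Krt19 in an ancestor. Of 34 measured cholangiocyte genes 1, 2 and 1 reached 100 CPM, beside a median of 13.5, and 22 were under 1 CPM in all 3. The exception in all 3 was Cd24a, a surface antigen that blood cells also carry, at 1142, 423 and 532 CPM. Of 48 hepatocyte genes 1, 2 and 1 did, beside a median of 5.5, and 40 were under 1 CPM in all 3. Alb, albumin, was at 23.0, 0 and 0 CPM. Of 21 mesothelial genes 0, 1 and 1 reached 100 CPM, beside a median of 4 in the others. Of 17 fibroblast and stellate cell genes 0, 1 and 0 did, beside a median of 1. Of 12 endothelial genes 1, 0 and 0 did, beside a median of 0. The fibroblast and endothelial counts thus did not set the 3 cells apart. The endothelial 1 was the Fc receptor Fcgr2b, also a myeloid gene, at 704 CPM in cell 29.

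In the other direction, 11 genes (0.109%) were under 1 CPM in each of the 3 cells and at 100 CPM or more in at least 18 others, on the contrast the selection made. Fn1, fibronectin, had a median of 379 CPM in the others, Atf3, a stress-induced factor, 305 CPM, and Ptprf, an epithelial receptor phosphatase, 263 CPM. The remaining genes by rank were Nfib, Ambp, Ttr, Cp, Cfb, Id2, Tmem176b and Tns1. Several are plasma proteins made in the liver, among them Ttr, Ambp, Cp and Cfb. The immediate early list, which tissue dissociation also induces, had 7, 11 and 13 of 38 genes at 100 CPM, beside a median of 17. Fos, an AP-1 subunit, was at 2.82, 925 and 433 CPM, and Jun at 218, 472 and 503 CPM. Cell 29 again had the fewest. Class I antigen presentation gave 7, 5 and 6 of 14, beside a median of 4.5, and H2-K1 was at 290.4, 443 and 676 CPM.

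The 3 cells had 319 genes at 100 CPM or more in common, of 2727 that reached it in at least 1. Cell 29 alone held 469, cell 32 alone 605 and cell 36 alone 695. These stood in the same order as the totals at 100 CPM, 1139, 1391 and 1474 of 10061 genes (11.3%, 13.8% and 14.7%). The part of the totals was not tested. Among the genes with the largest gap to the other pair were, in cell 29, Vcam1, an adhesion molecule, at 2973 CPM and Pfkl, a phosphofructokinase, at 2621 CPM. In cell 32 they were G0s2, Eif4enif1 at 742 CPM and Lipa, the lysosomal acid lipase, at 727 CPM. In cell 36 they were Xist, the RNA of the inactive X chromosome, at 1509 CPM, Mcm5 and Ctsa, a lysosomal carboxypeptidase, at 887 CPM. Xist was at 0.849 and 0.572 CPM in cells 29 and 32. The Y-linked genes Ddx3y, Eif2s3y and Uty were at most 5.86 CPM in the 3 cells.

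Across 10061 genes, Spearman's correlation between cells 29 and 32 was 0.545, between 32 and 36 it was 0.430 and between 29 and 36 it was 0.381. Cell 36 lay nearest to cell 33, at 0.476, and cells 29 and 32 both had cell 24 as second nearest, at 0.473 and 0.501. These orders follow the 2 library sets, which share low values, and the genes within a cell are not independent. With every value under 100 CPM set to 0, an alternative chosen after seeing the data, the pairs stood at 0.323, 0.350 and 0.300 and each of the 3 cells had the other members of the trio as its nearest. The next cells then reached 0.194, 0.236 and 0.231. At 100 CPM cells 32 and 36 shared 607 genes, 43.6% of the first and 41.2% of the second, although they belong to different sets. Outside the trio, cell 6 shared the most with each, 470 genes with cell 32 (33.8% of its genes) and 478 with cell 36 (32.4%).

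**Figure D5:**
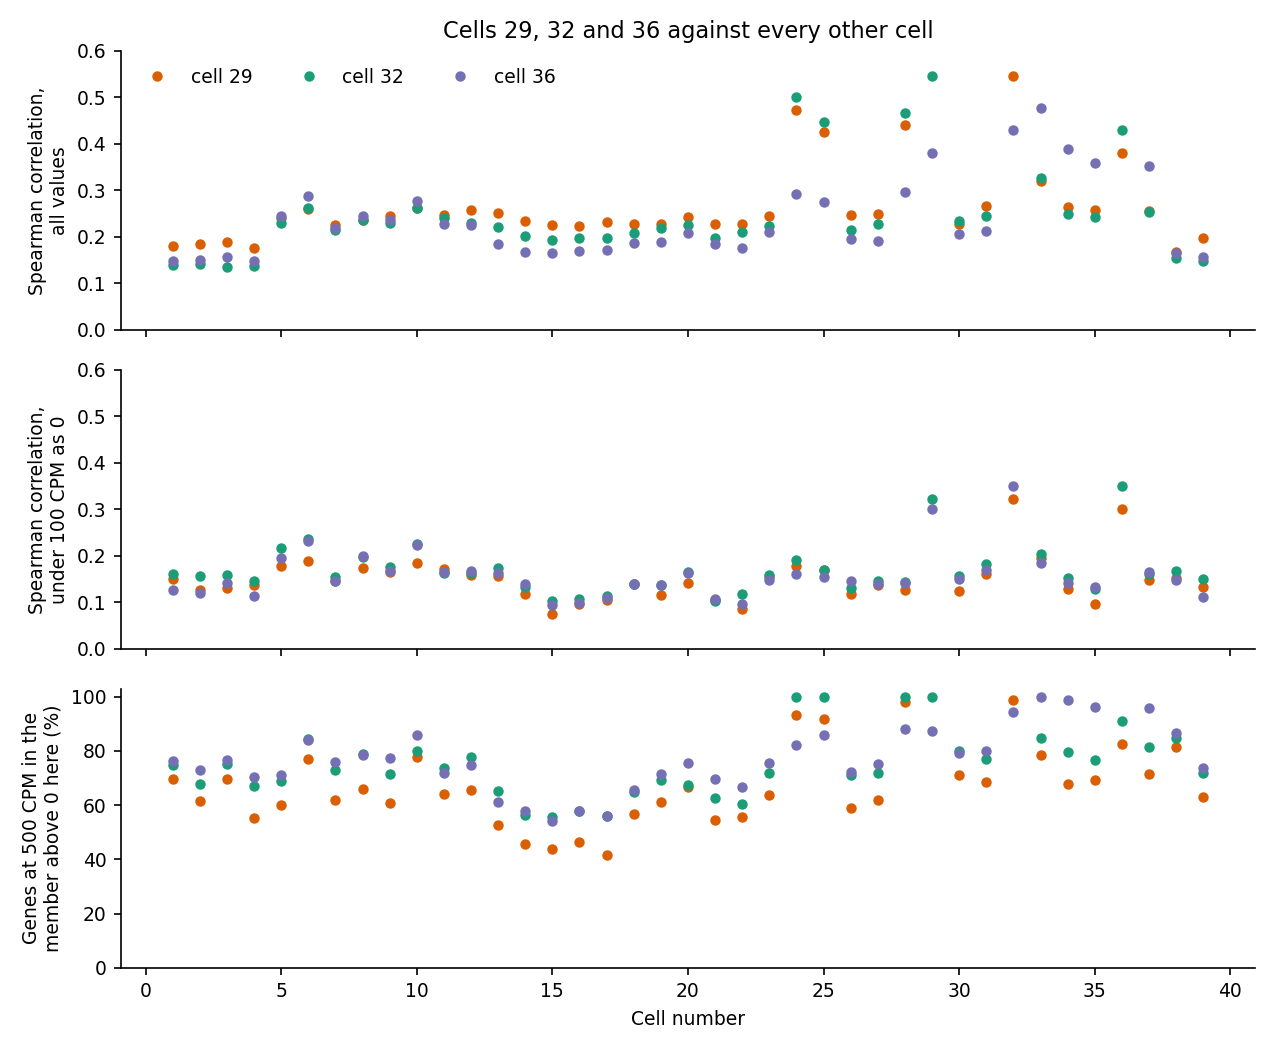
Spearman's correlation of cells 29, 32 and 36 with every other cell over all values (top) and with values under 100 CPM set to 0 (middle), and the percentage of each cell's genes at 500 CPM or more that are listed above 0 elsewhere (bottom), by cell number. Cells 24, 25 and 28 and cells 33 to 37 stand out in the top and bottom panels, and in the middle panel only the pairs among cells 29, 32 and 36 reach 0.300 or more.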

How the data were processed

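Single GFP-positive liver cells were sorted and picked, and RNA libraries were made with single-cell protocols, per the labels' protocols. The submitters' processing notes list the aligner Bowtie (0.12.9), the quantifier eXpress (1.5.1), edgeR and the mm9 build, without order or settings. The deposited values were log2 values for 13568 transcripts under 10061 symbols, with 1 minimum of -2.58 (0.167 linear) shared by 39 cells. The base and the per-million-like scale were read off these values. Each value was raised from base 2, 0.167 was subtracted, and the transcripts of a symbol were summed (2155 symbols had more than 1). The unit is called CPM here and no count model was fitted. The table holds only transcripts that exceed 0.5 CPM in 2 or more cells. Depth was inferred from the step between low values. All value columns were used.

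Members and gene lists (30) were chosen with earlier results of these data known, and no gene list is independent support. Cells were taken at 100 CPM for Elane and Mpo; detection was 1 CPM. Genes were named by rule: Elane, Mpo, Prtn3 and Ms4a3; the 20 largest gaps in log2(CPM + 1) between the lowest of the 3 cells and the highest other; the 10 highest medians among genes missing from the 3 cells; for each cell the 10 largest gaps to the other pair; list genes at 100 CPM in at least 1 of the 3; and Krt19. Any other gene was named with its values known. The counting rules were run on deposited values shuffled across cells within each gene, with set values put into some genes of the 3 cells. This checked only that the code returns the genes its own rule defines. No doublet caller was run and no cell was removed. The alternatives were thresholds, rescaling, transcript choice, filters, the correlation measure and leaving out cells. Promoter sequences are RefSeq's, build GRCm38.p6, which is not the build of the notes. Tools were Python 3.11.15, numpy 2.4.6, pandas 2.3.3 and matplotlib 3.10.9.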

Additional observations from a re-analysis of the deposited data

How the results depend on the processing

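The 3 cells were the same at thresholds of 100 and 1000 CPM. At 10 CPM 8 cells passed (cells 24, 28, 33, 34 and 35 joined). The gene counts were still made for cells 29, 32 and 36 against the same 36 others. At 10 CPM 41 genes were higher than in every other cell, 76 were shared and rare elsewhere and 52 were missing. The median of S phase and G2 and M phase genes per cell was 50. At 1000 CPM these counts were 7, 7, 0 and 3. At 100 CPM they were 23, 48, 11 and 31. Leaving out each of the 3 cells in turn gave 47 to 59 higher genes and 119 to 149 shared genes, since a rule over fewer cells passes more genes. The median of cycle genes was then 20 to 33, lowest without cell 36. Without the 7 other cells of the 2 library sets, an alternative chosen after seeing the data, 6 genes were missing in place of 11, while 26 were higher and 63 shared. Of 59 alternative values 42 were equal to the value given or differed from it by at most 1.5 times. With each cell rescaled to the same sum, 27 genes were higher, and after removing Rn45s, Lars2 and Rorb 29, each including 21 of the 23. The azurophil median was 12 with either rescaling. No paired analysis was possible because all cells form 1 group. With no named animal, plate or run, differences between cells cannot be told apart from differences between animals or libraries, and at single-cell depth a value near 0 does not show that a gene is off.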
